A study of Mus musculus with 6 samples.

Results

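The genes described here are 6 channel genes of the heart: the pacemaker channel genes Hcn2, Hcn3 and Hcn4, the sodium channel beta subunit genes Scn3b and Scn4b, and the atypical sodium channel gene Scn7a. They were taken by gene name from a table of 31529 genes, where each name matched 1 row. The rule is a list of names, but the list was proposed with earlier results of these data known. Polyadenylated RNA was sequenced from hearts of wild-type mice of the outbred ICR stock, collected on embryonic day 16.5 (E16.5) or 2 days later (E18.5). Each stage has 3 libraries, which the design text calls biological replicates, and the labels name no treatment. The sources used here do not say whether a library holds 1 heart or several, or from which litters, so p-values measure the spread between these libraries. The comparison asks how RNA of these channels differed between the stages late in gestation.

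The heartbeat starts from slow depolarisation in pacemaker cells and spreads as an action potential. HCN channels open when the membrane becomes more negative, let sodium and potassium ions through, and respond to cyclic AMP, so they help to set the pace. Voltage-gated sodium channels give the fast upstroke of the action potential in working muscle and in most of the conduction system. Their pore is formed by a large alpha subunit, and small beta subunits with an immunoglobulin-like domain outside the cell adjust its gating and placement.

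None of the 6 genes passed the test between stages over all genes (edgeR quasi-likelihood, Benjamini-Hochberg, adjusted p under 0.05), and the adjusted p ran from 0.456 for Hcn2 to 0.872 for Scn3b. Of the 19959 genes tested, 0.15% passed, 0.0952% as higher at E18.5 and 0.0551% as lower. All 6 channel genes had passed the filter on low counts. At an unadjusted p under 0.05 there were 3 of 6, with 1 higher at E18.5 (Hcn2) and 2 lower (Hcn3 and Hcn4), beside 9.53% of all genes tested (4.83% higher, 4.7% lower). DESeq2, limma-voom and limma on FPKM called 0 of the channel genes that they could test. A p that misses the threshold does not show that levels were alike. As a description of these libraries, Hcn3 FPKM stood above Hcn2 in all 3 E16.5 libraries, and Hcn2 above Hcn3 in all 3 E18.5 libraries.

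Whole-library facts bear on all of these values. The estimated counts summed to between 61443414 and 77237333 per library, and genes of the mitochondrial chromosome took 19.9% to 41.4% of them, with the lowest share in E16.5 replicate 2. The RNA of Xist marked 2 E16.5 libraries and 1 E18.5 library as female. Markers of heart muscle cells were abundant in every library, with a summed level between 33595 and 44668 CPM (each estimated count divided by its library's TMM-adjusted depth) over 12 genes. In bulk heart RNA, fewer cells of a type and less RNA per cell cannot be told apart.

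FPKM corrects for transcript length and sets genes beside each other. At E16.5 the order of mean FPKM was Hcn4, Scn7a, Hcn3, Scn3b, Hcn2 and Scn4b. Hcn3 and Scn3b, and Scn3b and Hcn2, were neighbours whose libraries overlapped. At E18.5 the order was Hcn4, Scn7a, Hcn2, Scn3b, Hcn3 and Scn4b, and the neighbouring pairs Scn7a and Hcn2, Hcn2 and Scn3b, and Hcn3 and Scn4b overlapped. Over the whole table the FPKM of Hcn4 lay on average at the 72.6th percentile, that of Scn7a at the 60.6th and that of Scn4b at the 32.4th.

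**Figure D1:**
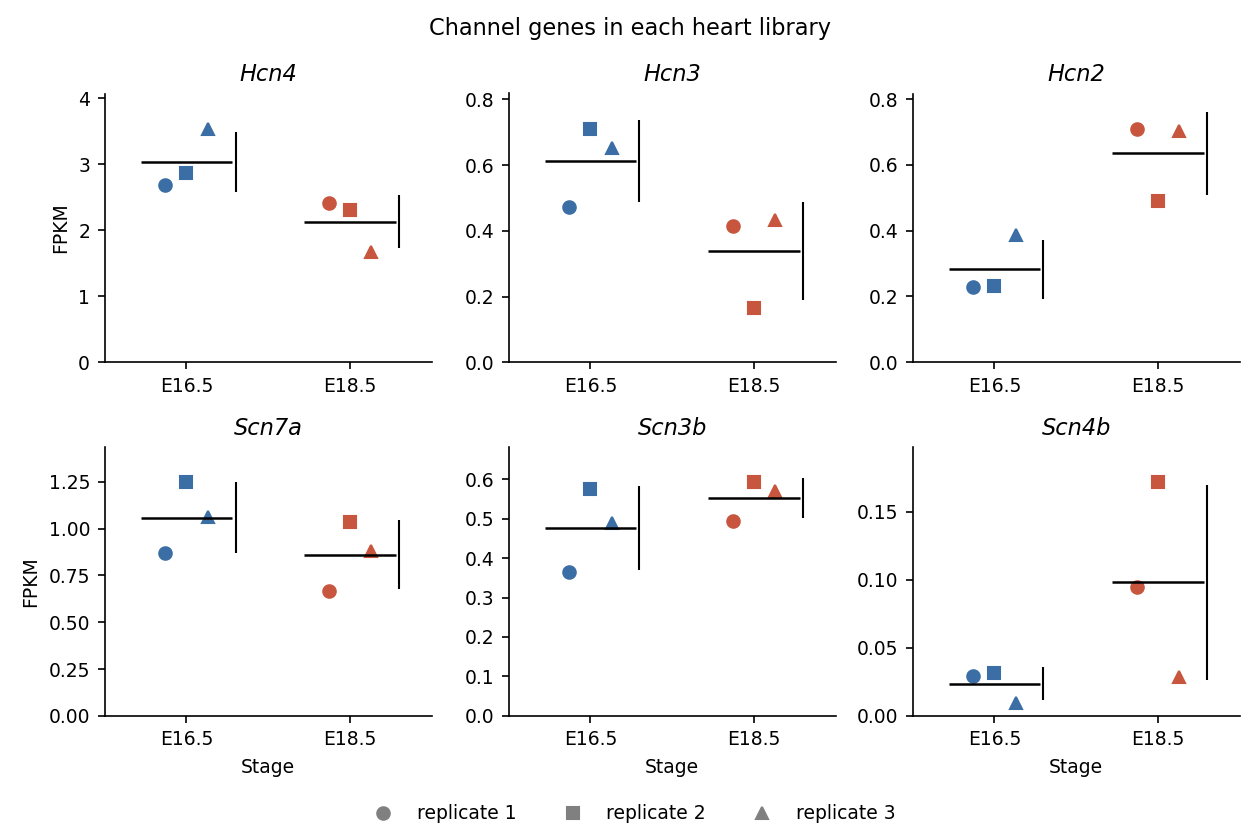
FPKM (y axis, from 0, a separate scale for each gene) of the 6 channel genes at E16.5 and E18.5 (x axis). Points are libraries with a marker shape per replicate number, horizontal lines are means and vertical lines are 1 SD over 3 libraries. The groups do not overlap for Hcn4, Hcn3 and Hcn2, and they do for Scn7a, Scn3b and Scn4b.

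Hcn4 encodes the main pacemaker channel of the sinoatrial node, and it is also made more widely in embryonic heart muscle. It lies on the plus strand of chromosome 9, 58823412 to 58863175 (GRCm38), as ENSMUSG00000032338. Its FPKM, given here and later in the order of replicates 1, 2 and 3, was 2.68, 2.86 and 3.54 at the earlier stage, while the E18.5 libraries held 2.41, 2.31 and 1.67. All E18.5 libraries lay below all E16.5 libraries on that scale. On the TMM-scaled CPM used for the test E16.5 libraries had 22.3, 15.6 and 25.8 and E18.5 libraries 17.3, 14.2 and 10.04, so that E18.5 replicate 1 stood above E16.5 replicate 2. Mean CPM went from 21.2 ± 5.18 to 13.8 ± 3.63 (SD, n = 3 per stage), for which edgeR gave a log2 change of -0.62 ± 0.25 (SE, adjusted p = 0.485). The 95% interval of the change ran from -1.19 to -0.05 before any correction for the number of genes.

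Hcn3 encodes an HCN channel that responds weakly to cyclic AMP. It lies on the minus strand of chromosome 3, 89146074 to 89160196, as ENSMUSG00000028051. The E16.5 libraries had an FPKM of 0.473, 0.711 and 0.653, against 0.415, 0.166 and 0.433 in those of E18.5. No E18.5 library reached the lowest E16.5 library, and E18.5 replicate 2, with 49 estimated counts against 119 to 222 in the other libraries, was far below the rest. Mean CPM was 2.85 ± 0.333 and then 1.498 ± 0.705, and the edgeR log2 change was -0.93 ± 0.41 (95% interval -1.86 to -0.00079, adjusted p = 0.524). Without E18.5 replicate 2 the log2 change was -0.59, with an edgeR adjusted p of 0.937.

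Hcn2 encodes an HCN channel of working heart muscle and brain that responds strongly to cyclic AMP. It lies on the plus strand of chromosome 10, 79716634 to 79736108, as ENSMUSG00000020331. In the E16.5 libraries Hcn2 FPKM was 0.229, 0.233 and 0.387, and in the E18.5 libraries 0.711, 0.490 and 0.704. Each E18.5 library stood above each E16.5 library, also in TMM-scaled CPM. Mean CPM was 1.05 ± 0.405 at the earlier stage and 2.16 ± 0.549 at the later one, a fitted ratio of 2.06. The edgeR log2 change was 1.04 ± 0.39, with a 95% interval from 0.14 to 1.94 and an adjusted p of 0.456. By unadjusted p Hcn2 ranked 1239 of 19959 genes. It rested on 54 to 178 estimated counts per library.

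Paralogous transcripts can share reads, so the HCN sequences were set side by side. The 120 bases around the selectivity filter, the narrow part of the pore with the residues glycine, tyrosine and glycine, show how they differ. They come from GENCODE M21 transcripts (GRCm38), 5′ to 3′ on the coding strand, and the capitals mark the 9 bases that encode those residues.
Hcn2: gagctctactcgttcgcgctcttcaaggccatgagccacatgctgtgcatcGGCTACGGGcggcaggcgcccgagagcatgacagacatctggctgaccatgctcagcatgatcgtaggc
Hcn3: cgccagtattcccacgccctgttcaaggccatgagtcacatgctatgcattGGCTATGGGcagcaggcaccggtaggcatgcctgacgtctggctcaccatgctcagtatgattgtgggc
Hcn4: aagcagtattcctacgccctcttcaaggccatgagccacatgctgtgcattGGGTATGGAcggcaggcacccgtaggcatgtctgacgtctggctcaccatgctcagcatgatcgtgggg
Over this stretch Hcn3 and Hcn4 shared 105 of 120 bases, Hcn2 and Hcn4 shared 99, and Hcn2 and Hcn3 shared 92. Along whole transcripts the most alike stretches were 89.6% identical over 355 bases for Hcn3 and Hcn4, 82.8% over 1636 bases for Hcn2 and Hcn4, and 81.5% over 302 bases for Hcn2 and Hcn3 (megablast, at least 80% identity over 100 bases). No stretch of Scn3b, Scn4b or Scn7a matched a transcript of another gene at those limits. Hcn3 overlaps 711 bases of Pklr, the pyruvate kinase gene of liver and red cells, on the opposite strand, and the CPM of Pklr, not corrected for length, was 7.90% of that of Hcn3. Strand use in counting is not stated, so Hcn3 and Pklr reads may not be fully separated.

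The FPKM of the HCN genes was also set in ratio within each library, which does not depend on how libraries are scaled. As Hcn2 and the other HCN genes described here lay on opposite sides of 0 above, these ratios restate that pattern, and their p-values are no separate support for it. The log2 ratio of Hcn2 to Hcn3 FPKM was -1.04, -1.61 and -0.76 in E16.5 libraries but 0.78, 1.56 and 0.70 in E18.5 libraries, so its sign differed between the stages in every library (two-sided exact permutation p = 0.1, the smallest that 3 against 3 libraries allow). Adjusted over the 14 quantities compared this way it was 0.467 (exact permutation, Benjamini-Hochberg). The mean log2 ratio was -1.14 ± 0.43 and then 1.01 ± 0.48 (SD, n = 3), a difference of 2.15. The log2 ratio of Hcn2 to Hcn4 was -3.55, -3.62 and -3.20 earlier against -1.76, -2.24 and -1.25 later, again with no overlap (exact permutation p = 0.1, adjusted 0.467). Hcn4 was the most abundant of these genes in every library. Its FPKM was 11.7, 12.3 and 9.16 times that of Hcn2 in the E16.5 libraries, and 3.39, 4.71 and 2.37 times in the E18.5 libraries. The ratio of Hcn3 to Hcn4 overlapped between the stages, with log2 values from -2.50 to -2.01 at E16.5 and from -3.80 to -1.94 at E18.5 (exact permutation p = 0.6).

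**Figure D2:**
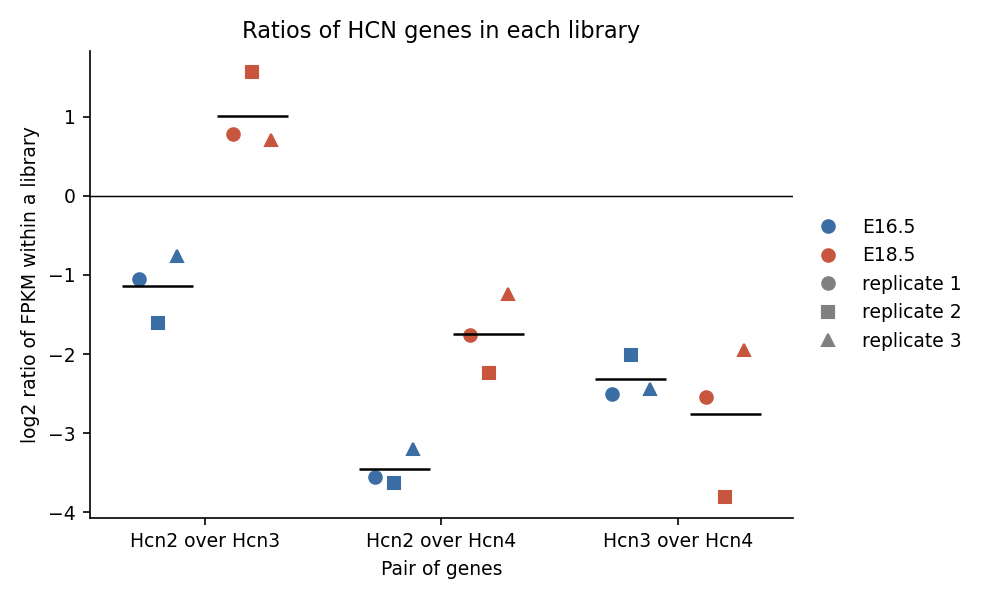
Log2 ratio of FPKM (y axis) for pairs of HCN genes (x axis). Points are libraries, coloured by stage with a marker shape per replicate number, and black lines are means over 3 libraries. The ratio of Hcn2 to Hcn3 is below 0 in each E16.5 library and above 0 in each E18.5 library, and that of Hcn3 to Hcn4 overlaps between the stages.

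Scn3b encodes a beta subunit that binds the pore-forming subunit without a covalent bond. It lies on the plus strand of chromosome 9, 40269217 to 40291618, as ENSMUSG00000049281. Scn3b FPKM was 0.364, 0.575 and 0.488 in the E16.5 libraries and 0.495, 0.593 and 0.569 later. The stages overlapped, and E16.5 replicate 1 was the lowest library. Mean CPM was 2.90 ± 0.239 and later 3.17 ± 0.0883, and the edgeR log2 change was 0.13 ± 0.23 (adjusted p = 0.872). Its 95% interval from -0.39 to 0.64 does not show that the stages were alike.

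Scn4b encodes a beta subunit that is held to the pore-forming subunit by a disulfide bond. It lies on the plus strand of chromosome 9, 45138395 to 45154152, as ENSMUSG00000046480. It had the lowest mean level of the 6 genes at both stages, with 13, 12 and 4 estimated counts in the E16.5 libraries and 37, 61 and 10 in those of E18.5. In FPKM these were 0.0293, 0.0317 and 0.00975, then 0.0945, 0.172 and 0.0284. In E18.5 replicate 2 Scn4b stood just above Hcn3, at 0.166 FPKM. Replicates 1 and 2 of E18.5 were above every E16.5 library, while E18.5 replicate 3 lay among the E16.5 libraries. Mean CPM was 0.138 ± 0.0750 and 0.524 ± 0.360, and the edgeR log2 change was 1.92 ± 0.87 (95% interval -0.06 to 3.90, adjusted p = 0.532). This was the largest log2 change in size among the 6 genes and had the largest standard error. With embryo sex as a term the log2 change was 1.17, with an edgeR adjusted p of 0.653.

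Scn2b, another beta subunit gene, had a log2 change of -0.82 ± 0.52 (edgeR adjusted p = 0.642). Scn2b and Scn4b lie side by side on chromosome 9 on the same strand with 8324 bases between them. Scn2b FPKM was 0.0945, 0.392 and 0.232 in E16.5 libraries and 0.169, 0.0869 and 0.145 later, above Scn4b in every library except E18.5 replicate 2. The log2 ratio of Scn4b to Scn3b FPKM was -3.63, -4.18 and -5.64 earlier against -2.39, -1.79 and -4.33 later, which overlapped (exact permutation p = 0.3).

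Scn7a encodes Nax, a relative of the voltage-gated sodium channels that does not open with voltage as they do and is known as a sensor of sodium outside the cell, made by glial and Schwann cells among others. It lies on the minus strand of chromosome 2, 66673425 to 66784914, as ENSMUSG00000034810, 38462 bases from Scn9a in a cluster of sodium channel genes. Its TMM-scaled CPM was 8.66, 8.17 and 9.29 in E16.5 libraries but 5.72, 7.62 and 6.37 in E18.5 libraries. On that scale no E18.5 library reached the lowest E16.5 library. In FPKM the stages overlapped, at 0.869, 1.25 and 1.06 and at 0.666, 1.03 and 0.882. Mean CPM was 8.71 ± 0.564 and then 6.57 ± 0.967, and the edgeR log2 change was -0.41 ± 0.18 (95% interval -0.82 to 0.012, adjusted p = 0.532).

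Markers of cells known to make Scn7a were looked at beside it. The 10 markers of Schwann and glial cells summed to 30.9 to 39.7 CPM at E16.5 and 31.4 to 34.7 CPM at E18.5, and the sums overlapped. Of the 7 that were tested 0 passed, 6 had a higher and 1 a lower fitted level at E18.5. Sox10, the defining factor of these cells, was between 0.291 and 0.739 CPM, and Foxd3 was at 0 in all but E18.5 replicate 2. The part of these cells in the level of Scn7a was not tested.

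Of a list of pore-forming sodium channel genes 9 were tested and 0 passed, and their median log2 change was 0.08, beside -0.002 over all genes tested. Scn10a, known from sensory neurons and also made in the heart, was at 1.24 to 1.98 FPKM over the 6 libraries (log2 change 0.14 ± 0.19, edgeR adjusted p = 0.842). Scn7a, at 0.666 to 1.25 FPKM, overlapped with the lowest Scn10a library. Scn1a, Scn2a, Scn3a, Scn4a, Scn8a, Scn9a and Scn11a reached at most 0.287 FPKM (Scn3a) in any library.

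**Figure D3:**
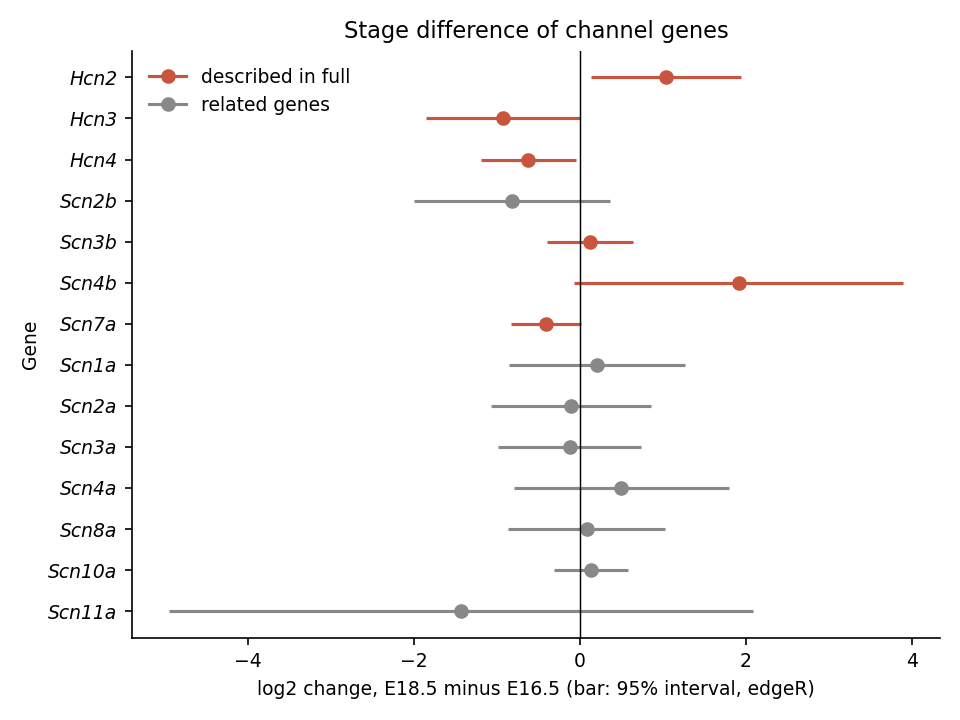
Log2 change from E16.5 to E18.5 (x axis) of the 6 genes described in full (red) and of related channel genes (grey), one gene per line (y axis), with 95% intervals from edgeR as bars. The intervals of Hcn2, Hcn3 and Hcn4 exclude 0 before correction over all genes, and those of the other genes drawn include it.

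Groups that did not overlap were counted on both scales. In TMM-scaled CPM these were 3 of the 6 genes, Hcn2 (higher at E18.5), Hcn3 and Scn7a (lower), beside 16.5% of all genes tested (8.45% higher, 8.02% lower). In FPKM they were Hcn2 (higher), Hcn3 and Hcn4 (lower), beside 11.9% of all genes tested (6.26% higher, 5.64% lower). Given how the genes were chosen, these counts are descriptions. The median size of the log2 change was 0.77 over the 6 genes and 0.25 over all genes tested, and the median signed change was -0.14 and -0.002. Hcn2, Hcn3, Scn3b and Scn4b had at most 229 estimated counts in any library. Standard errors ran from 0.18 for Scn7a to 0.87 for Scn4b, beside a median of 0.26 over all genes.

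Differences were also computed separately for libraries above and below a mitochondrial share of 30%. Above 30% these are 2 E16.5 libraries and 1 E18.5 library, and below it 1 and 2, so each value has only 1 library for one of its stages. The split does not make the share alike between stages. Above the line it was 41.4% and 35.0% at E16.5 against 33.5% at E18.5, and below it 19.9% against 26.7% and 25.2%. For Hcn2 the log2 difference was 1.13 above and 1.48 below that share, for Hcn3 -0.54 and -1.24, and for Hcn4 -0.47 and -0.39. For Scn7a it was -0.65 and -0.23, for Scn4b 2.21 and 1.24, and for Scn3b 0.11 and 0.17.

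Proteins that bind or regulate these channels were taken as a list of 22 genes, all tested. None passed, 16 were higher and 6 lower at E18.5 without passing, and their median log2 change was 0.20, beside -0.002 over all genes tested. At an unadjusted p under 0.05 there was 1 higher and 0 lower of 22, beside 4.83% and 4.7% of all genes tested. That gene was Fgf12, an intracellular fibroblast growth factor homologue that binds the tail of sodium channels and shifts their inactivation. Fgf12 was at 4.88, 5.54 and 9.31 CPM in E16.5 libraries and at 24.8, 21.6 and 21.4 CPM later, with no overlap. The log2 change was 1.78 ± 0.25 with an adjusted p of 0.0512 in edgeR, and the adjusted p was 0.0463 in limma-voom and 1.66e-08 in DESeq2. DESeq2 called 343 genes over the whole table, against 30 in edgeR. Limma on FPKM gave Fgf12 an adjusted p from 0.0981 to 0.175, and edgeR with embryo sex as a term gave 0.132. Fgf12 passed in 6 of 17 alternatives. The next by p were Kctd3 (log2 change 0.40), an HCN3 partner, and the calmodulin kinase gene Camk2d (0.24), with edgeR adjusted p of 0.572 and 0.573.

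Genes of the pacemaker and conduction system were a list of 29, all tested, of which 0 passed, with 14 higher and 15 lower and a median log2 change of -0.08. At an unadjusted p under 0.05 there were 1 higher and 7 lower, beside 4.83% and 4.7% of all genes tested. The smallest p belonged to Ntm, a cell adhesion gene, at 29.4 ± 9.73 CPM and 13.9 ± 2.08 CPM (log2 change -1.09 ± 0.26). The guidance gene Slit2 followed (-0.66 ± 0.16), then the pacemaker calcium channel gene Cacna1d (-0.53 ± 0.13) and the copine gene Cpne5 (-0.64 ± 0.17), with edgeR adjusted p from 0.223 to 0.267. The node factors Shox2, Tbx3 and Isl1, which help to make pacemaker cells, had log2 changes of 0.44, 0.04 and -0.56, and none passed. Shox2 was at 1.87 to 3.72 CPM earlier and 2.65 to 6.41 CPM later, and Isl1 at 0.483 to 1.84 CPM over all libraries.

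**Figure D4:**
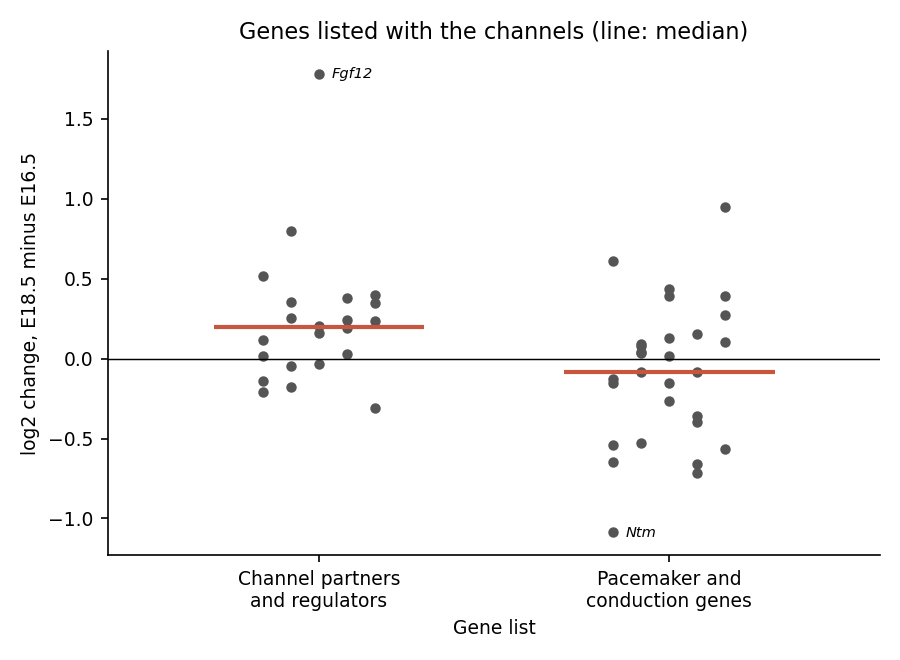
Log2 change from E16.5 to E18.5 (y axis) of each tested gene in the lists of channel partners and of pacemaker and conduction genes (x axis), with the list median as a red line. Fgf12 at 1.78 stands apart among the partners, Ntm at -1.09 is the lowest conduction gene, and none of the genes plotted passed over all genes.

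Markers of heart chambers stood as follows beside the channel genes. The 10 atrial markers summed to 1920 to 2905 CPM at E16.5 and 3756 to 4372 CPM at E18.5, with no overlap, and the 7 ventricular markers to 17575 to 20009 CPM and 16427 to 20239 CPM. Of the atrial markers 7 were higher and 3 lower, 0 passed, and the median log2 change was 0.51. An unadjusted edgeR p under 0.05 was reached by 5 higher and 1 lower, beside 4.83% and 4.7% of all genes tested. Nppa, the atrial natriuretic peptide gene, was at 1036 ± 248 and then 2229 ± 50.6 CPM (edgeR adjusted p = 0.147). Nppa was the largest part of each atrial sum. The next largest, Myl7, was at 536 to 935 CPM and then 748 to 1282 CPM, which overlapped. The 9 fibroblast markers all had higher fitted levels at E18.5 with 0 passing, 3 of them at an unadjusted p under 0.05. The 9 epicardial markers all had higher fitted levels too, 5 of them at an unadjusted p under 0.05. Of these 1 passed, the keratin gene Krt19 (edgeR adjusted p = 0.0219), beside 0.15% of all genes tested. The 12 markers of neurons, which also use HCN and sodium channels, summed to 53.0 to 60.3 CPM and 46.4 to 56.9 CPM, and the sums overlapped. Uchl1 was the largest part of each sum, at 39.2 ± 1.38 and then 26.7 ± 5.52 CPM (log2 change -0.56, edgeR adjusted p = 0.345). Of the 10 neuron markers tested 0 passed, 7 had a higher and 3 a lower fitted level at E18.5, and the median log2 change was 0.68. At an unadjusted p under 0.05 there were 2 higher, Stmn2 (log2 change 0.87) and Dbh (0.78), and 1 lower, Uchl1. Over all genes tested these shares were 4.83% and 4.7%. Th was at 0 in 4 libraries and Chat at 0 in 5. The part of these cells in the channel results was not tested.

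The genes whose levels ran most like each channel over the 6 libraries were named from 5396 genes with a mean FPKM of at least 5, by Pearson's r of log2 CPM. They were Slc37a3, Ccdc9 and Cnot8 for Hcn4 (r of 0.99 each), Commd4, Nme4 and Scamp2 for Hcn3 (0.99, 0.97 and 0.97) and Tacc2, Adamts10 and Abca7 for Hcn2 (0.99 each). For Scn7a they were Nrp1, Fam207a and Tmem115 (0.99, 0.99 and 0.98), for Scn3b Rab3a, Sort1 and Pradc1 (0.99, 0.99 and 0.98), and for Scn4b Napa, Mcts2 and Noc4l (0.95, 0.95 and 0.94). An r over 0.95 was reached by 51 genes for Hcn4, 17 for Hcn2, 10 for Scn3b, 9 for Scn7a, 6 for Hcn3 and 0 for Scn4b. With 6 libraries that differ in depth and stage, these values describe likeness in this set only.

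Hcn3 and Scn3b had no entry among the promoter sequences used (RefSeq, GRCm38.p6). In the other channel genes the 250 bases before the start site differ in base composition. They hold 25 CpG dinucleotides for Hcn4, 23 for Scn4b and 16 for Hcn2, beside a median of 6 over 32851 promoters, and 3 for Scn7a. The GC content was 71.2% for Hcn4, 70.4% for Hcn2, 66.0% for Scn4b and 53.2% for Scn7a, beside a median of 52.4%.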

How the data were processed

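The labels' protocols describe oligo(dT) selection, a second strand marked with dUTP, adapters with molecular identifiers and paired-end sequencing on an Illumina NovaSeq. Tools named in the submitters' processing notes, without roles, are StringTie 1.3.4d, HISAT2 2.0.4, UMI-tools and cutadapt 1.9, and the build named is mm9. The authors deposited 1 table with an estimated count (a whole number) and an FPKM value per gene and library, per the file headers. FPKM implied fewer reads than the listed count for each of 10 low values. Depth was the total count per library. Its coordinates matched GRCm38 for 611 of 29874 identifiers, so positions come from GENCODE M21 by identifier.

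Stages were compared with edgeR 4.0.16 (R 4.3.3) on the counts: filterByExpr, TMM, quasi-likelihood test, two-sided, Benjamini-Hochberg over 19959 genes. SE is the log2 change over the square root of F. Ratios used an exact permutation test (scipy 1.17.1). Alternatives used DESeq2 1.42.0, limma 3.58.1 and other settings. Named genes were the 6 channels, genes of their families, up to 4 genes per further list by p, and 3 per channel by likeness. Shox2, Tbx3, Isl1, Sox10, Foxd3, Th, Chat and Myl7 were named outside that rule, after their values were seen. The members and lists were chosen with earlier results of these data known. Shares of the channels in their families, and some genes that the naming rule would give, are not reported here.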

Additional observations from a re-analysis of the deposited data

How the results depend on the processing

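The 6 channel genes kept their direction and stayed short of the threshold under every alternative that could test them: 17 settings each for Hcn4, Scn7a and Scn3b, and 15 each for Hcn2, Hcn3 and Scn4b, whose mean FPKM was below 0.5. The lowest adjusted p was 0.0894, for Hcn4 without E16.5 replicate 2, and the log2 change of Hcn4 ran from -0.82 to -0.37. It ran from 0.80 to 1.36 for Hcn2, from -1.22 to -0.59 for Hcn3, from -0.53 to -0.15 for Scn7a, from 0.62 to 2.36 for Scn4b and from 0.08 to 0.19 for Scn3b. The smallest sizes for Hcn4, Scn7a, Scn3b and Scn4b came from limma fits on log2(FPKM + pseudocount).

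The number of genes called over the whole table did move from 30: 343 by DESeq2, 184 with mitochondrial share as a term, 14 with embryo sex as a term, and 10, 16 and 14 by limma on log2(FPKM + 1), on log2(FPKM + 0.1) and on log2(FPKM + 0.1) with a lower filter of 0.05 mean FPKM that was added after seeing the data. Leaving out 1 library gave 8 (without E16.5 replicate 3) to 371 (without E16.5 replicate 2). The cause was not tested. Fgf12, the channel partner next to the threshold, passed in 6 of 17 alternatives.

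Same-numbered replicates are not tied by the labels. Their deviations from the stage mean correlated at 0.28, 0.37 and -0.08, and those of differently numbered replicates at -0.45 to 0.28. Whether the numbers pair the libraries cannot be told from these values. The fit with a replicate block called 43 genes and none of the 6 channel genes (Hcn2 log2 change 1.08, Hcn3 -1.05, Hcn4 -0.62, Scn7a -0.41, Scn3b 0.13, Scn4b 1.78). Depth limits Scn4b, with 4 to 61 estimated counts per library.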
